A study of Mus musculus with 8 samples.

Results

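The alveolar macrophage genes are 10 genes known to mark or serve the macrophages of the mouse air spaces: Siglecf, Marco, Mrc1, Itgax and Mertk, which encode surface receptors, Chil3 and Mmp12, which encode secreted proteins, Pparg, which encodes a nuclear receptor, Krt79, which encodes a keratin, and Car4, which encodes a membrane-anchored carbonic anhydrase. They were chosen by name, with earlier results of these data known. Each was read from its probe with exactly 1 gene symbol, the brightest by mean over 8 arrays where a gene had several. Each of the 10 had 1 such probe. They are 10 of the 19937 genes with such a probe. All 10 were among the 14953 genes tested, those with a mean log2 level at or above the 25th percentile (5.93).

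Whole mouse lung was profiled in 4 groups of 2 arrays: mepenzolate at 25 h, vehicle at 25 h, mepenzolate at 7 h and vehicle at 7 h. Mepenzolate, a muscarinic receptor blocker, was given into the trachea in PBS by micropipette under chloral hydrate anaesthesia (500 mg/kg); the labels carry this protocol on all 8 arrays and do not say what the vehicle was. The stated aim of the study was to learn how mepenzolate lowers inflammation and oxidative stress in the lung. Strain, age, sex and the hour of day at collection were not given in the sources used here, and the labels leave unsaid whether replicate arrays are different mice. The p-values therefore reflect only array-to-array spread within groups, part of which may be technical.

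Alveolar macrophages are resident phagocytes that patrol the air side of the alveolus, clear surfactant, inhaled particles and dead cells, and renew themselves locally. GM-CSF from the alveolar epithelium and TGF-beta act through the nuclear receptor PPARG and the macrophage factor PU.1 to set their identity, and the mature cells carry Siglec-F, CD11c, MARCO and the mannose receptor together. In mice, macrophage elastase, the product of Mmp12, is a known requirement for emphysema caused by cigarette smoke.

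The promoters of 4 surface and secreted members are shown because each holds the letters GAGGAAG, a core that PU.1 recognises, or their reverse complement CTTCCTC, in the 250 bases before the start of transcription; that of Chil3 is shown because Chil3 had the widest difference between the 2 times among the members. Sequences are from RefSeq, build GRCm38.p6, written 5′ to 3′ along the gene, ending at the base before the start. Capitals mark the PU.1 core in the first 4 and the letters TTCNNNGAA, which STAT5 recognises downstream of GM-CSF, in Chil3. Siglecf is at chr7:43351091-43351340 (plus strand), Marco at chr1:120505025-120505274 (minus strand), Mrc1 at chr2:14229164-14229413 (plus strand), Mmp12 (the first of its 2 starts) at chr9:7344147-7344396 (plus strand) and Chil3 at chr3:106167565-106167814 (minus strand).
Siglecf: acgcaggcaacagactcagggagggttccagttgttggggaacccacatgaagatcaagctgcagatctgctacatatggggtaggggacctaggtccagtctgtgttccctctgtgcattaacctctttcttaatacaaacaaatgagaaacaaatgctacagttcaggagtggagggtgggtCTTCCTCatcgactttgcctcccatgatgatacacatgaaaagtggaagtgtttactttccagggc
Marco: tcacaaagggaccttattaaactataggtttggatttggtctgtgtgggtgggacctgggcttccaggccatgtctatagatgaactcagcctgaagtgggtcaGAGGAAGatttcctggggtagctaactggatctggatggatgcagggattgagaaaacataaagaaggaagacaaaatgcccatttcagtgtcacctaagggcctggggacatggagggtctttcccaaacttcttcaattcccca
Mrc1: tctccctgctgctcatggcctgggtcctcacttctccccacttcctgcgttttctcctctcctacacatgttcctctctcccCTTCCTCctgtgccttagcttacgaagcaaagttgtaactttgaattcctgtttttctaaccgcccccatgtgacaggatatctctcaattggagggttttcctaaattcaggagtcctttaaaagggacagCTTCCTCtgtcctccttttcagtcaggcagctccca
Mmp12: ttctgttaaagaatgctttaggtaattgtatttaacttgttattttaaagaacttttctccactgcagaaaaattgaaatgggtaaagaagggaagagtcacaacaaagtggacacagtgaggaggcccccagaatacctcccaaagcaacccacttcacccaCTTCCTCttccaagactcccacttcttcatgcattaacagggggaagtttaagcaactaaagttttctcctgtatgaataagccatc
Chil3: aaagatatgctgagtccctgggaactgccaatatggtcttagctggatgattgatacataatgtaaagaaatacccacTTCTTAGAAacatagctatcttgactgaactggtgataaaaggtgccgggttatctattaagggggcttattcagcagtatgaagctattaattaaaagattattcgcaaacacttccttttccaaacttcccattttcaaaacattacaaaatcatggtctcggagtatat

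The PU.1 core lay 66 to 60 bases before the start of Siglecf, 146 to 140 before that of Marco, 87 to 81 before that of Mmp12, and at 168 to 162 and 36 to 30 before that of Mrc1. On both strands, 10.6% of all 32851 promoter entries of this length held the core. The STAT5 letters lay 172 to 164 bases before the start of Chil3, and Chil3 was the only 1 of the 10 members with them. They occurred in 7.02% of all entries. Of the other motifs searched, the AP-1 letters TGANTCA were found before Itgax and before the second start of Mmp12, against 6.75% of all entries. The E-box CACGTG (6.02% of entries) and the PPARG and RXR repeat (0.0335% of entries) were found before none of the 10. These matches describe letters in a window; binding was not measured.

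Levels are log2 values from RMA (robust multi-array average), so a difference of 1 is a doubling of signal; a probe's level is compared only with itself across arrays. Array medians lay between 6.70 and 6.77. Over the genes tested, the correlation was r = 0.987 to 0.993 in the 4 replicate pairs and r = 0.985 to 0.994 in the 24 pairs from different groups, as a description across genes. The second mepenzolate 7 h array stood apart: its mean over 8 airway club cell genes was -0.70 from the mean of all arrays, against -0.03 to 0.36 on the other 7 arrays. Its mean over the 3 liver genes tested, of 7 listed, was 1.22, against -0.30 to -0.10. The level filter that kept these 3 used all 8 arrays, this array included. Over the other 7 arrays the mean of Ahsg lay under the filter level, so Ahsg passed the filter only through this array. Its part in the list mean is thus no separate mark of this array. Ahsg had 6.68 on it, against 5.77 to 6.16 on the others, values around the filter level of 5.93. Alb had 8.93, against 5.94 to 6.39. Differences of the members at 7 h are therefore also given without the second mepenzolate array, as are those of other genes and lists that moved.

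None of the 10 members passed the test in any comparison (limma, Benjamini-Hochberg adjusted p below 0.05 over all genes tested). Mepenzolate lungs differed from vehicle lungs by at most 0.27 on the log2 scale in any member, and 5 members, Siglecf, Krt79, Itgax, Car4 and Mertk, had both mepenzolate arrays below both vehicle arrays at 25 h, as did 22.4% of all genes tested. Chil3, a chitinase-like lectin secreted by macrophages, was 1.27-fold higher at 25 h than at 7 h, at an adjusted p of 0.261 from limma. Its arrays did not overlap, with a lowest value of 10.13 at 25 h and a highest of 10.11 at 7 h. Over all genes tested, 2.55% were higher at 25 h without overlap. In whole lung, fewer cells of a type and less RNA per cell cannot be told apart.

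**Figure D1:**
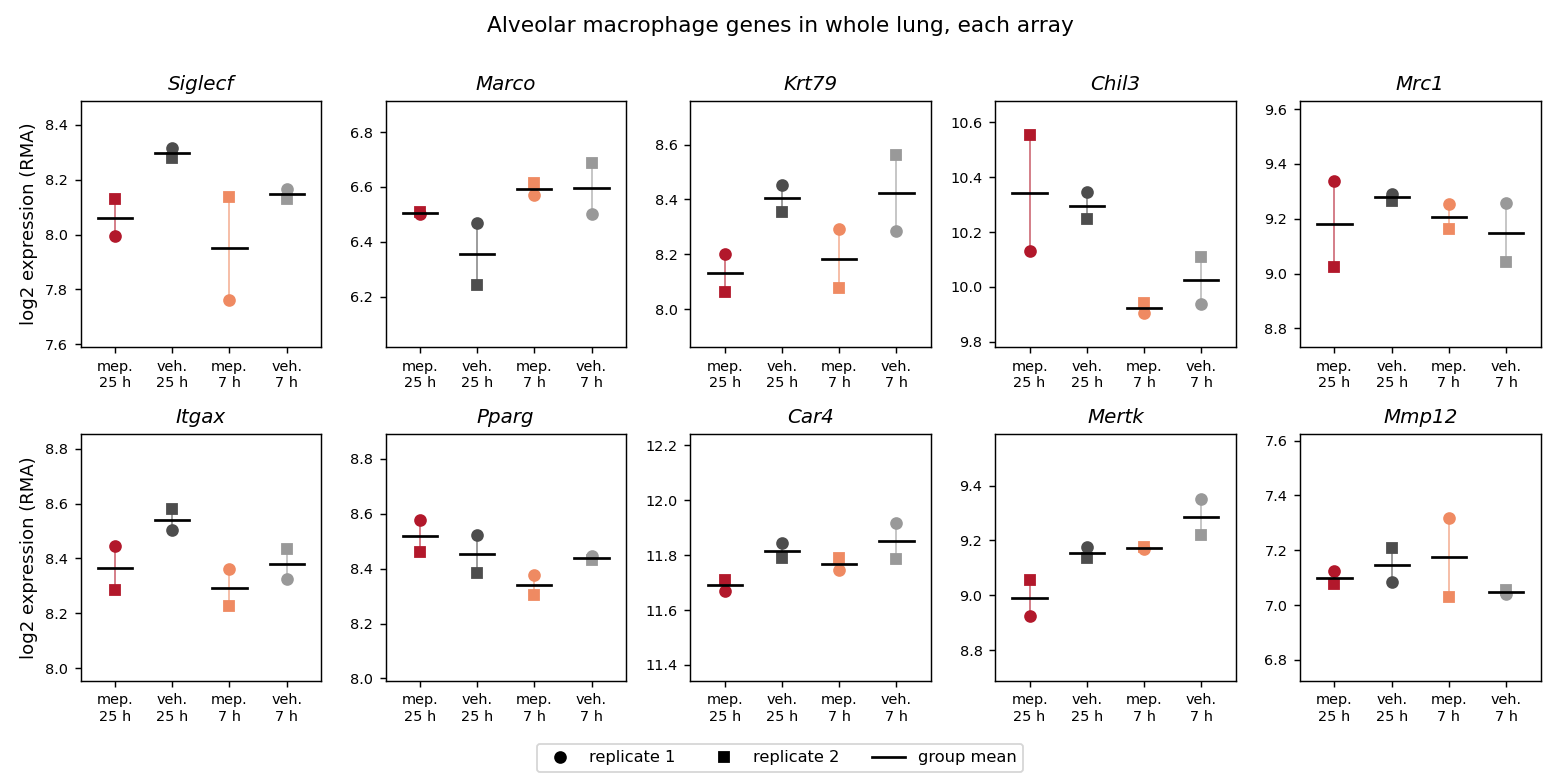
Log2 level of each of the 10 alveolar macrophage genes on every array (points) with the group mean (bar), 1 panel per gene, each with its own vertical axis. The Chil3 points at 25 h all lie above those at 7 h, as is so for 2.55% of all genes tested. The Mrc1 points of mepenzolate and vehicle lungs overlap at both times.

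Siglecf, the eosinophil and alveolar macrophage lectin that binds sialic acid and dampens signalling, had log2 levels of 7.997 and 8.13 in mepenzolate lungs at 25 h, against 8.31 and 8.28 in vehicle lungs. At 7 h it had 7.76 and 8.14 in mepenzolate lungs, against 8.16 and 8.13 in vehicle lungs. The groups did not overlap at 25 h and did at 7 h, where 1 mepenzolate array was lowest of the 8 and the other lay between the vehicle arrays. The difference was -0.24 ± 0.12 (SE; limma, 95% interval -0.52 to 0.05, adjusted p = 0.979) at 25 h and -0.20 ± 0.12 (limma adjusted p = 1.00) at 7 h. Without the first mepenzolate array the 7 h difference was -0.0099, and without the second it was -0.38.

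Siglec-F also marks eosinophils, for which 3 of 6 listed genes were tested. At 25 h the list's mean deviations were -0.11 to 0.13 on mepenzolate arrays, against -0.30 to 0.16 on vehicle arrays. At 7 h the mean deviations were 0.09 to 0.13 on mepenzolate arrays, against -0.12 to 0.03 on vehicle arrays. The part of eosinophils in the Siglecf values was not tested. Of the 6 other sialic acid receptors tested, 6 had a difference below 0 at 25 h and 5 at 7 h, and none passed. Over all genes tested, 58.7% were below 0 at 25 h and 56.4% at 7 h. The list medians were -0.06 and -0.03. Without the second mepenzolate array 6 of these receptors were below 0 at 7 h, median -0.15. Siglece, an inhibitory receptor of myeloid cells, had 6.12 and 6.66 in mepenzolate lungs at 25 h, against 7.06 and 7.09 in vehicle lungs, a difference of -0.69 ± 0.23 (limma adjusted p = 0.979).

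Marco, a scavenger receptor with a collagenous stalk that takes up unopsonised particles and bacteria, had levels of 6.50 and 6.51 in mepenzolate lungs at 25 h, against 6.47 and 6.24 in vehicle lungs. At 7 h the levels were 6.57 and 6.61 in mepenzolate lungs, against 6.50 and 6.69 in vehicle lungs. It was the only member with both mepenzolate arrays above both vehicle arrays at 25 h, and the smaller of the gaps between the groups was a few hundredths. The difference was 0.15 ± 0.10 (limma adjusted p = 0.979) at 25 h and -0.0017 ± 0.10 (limma adjusted p = 1.00) at 7 h, where it was -0.02 without the second mepenzolate array.

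Mrc1, the mannose receptor CD206, had levels of 9.34 and 9.03 in mepenzolate lungs at 25 h, against 9.29 and 9.27 in vehicle lungs. The 7 h levels were 9.25 and 9.16 in mepenzolate lungs, against 9.26 and 9.04 in vehicle lungs. The mepenzolate arrays held both the highest and the lowest of the 8 values, and the groups overlapped at both times. The differences were -0.10 ± 0.12 at 25 h and 0.06 ± 0.12 at 7 h (limma adjusted p = 0.979 and 1.00), the 7 h value being 0.10 without the second mepenzolate array. Among 9 other scavenger receptors tested, of 10 listed, 4 were above 0 at 25 h and 3 at 7 h (5 without the second mepenzolate array), and none passed. Msr1, which takes up modified lipoproteins, differed by 0.08 at 25 h and 0.31 at 7 h (0.45 without that array).

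Itgax, the CD11c chain of a beta 2 integrin shared with dendritic cells, had levels of 8.45 and 8.29 in mepenzolate lungs at 25 h, against 8.50 and 8.58 in vehicle lungs. At 7 h the levels were 8.36 and 8.23 in mepenzolate lungs, against 8.32 and 8.44 in vehicle lungs. The groups were apart at 25 h, with the second vehicle array highest of all 8, and overlapped at 7 h. The difference was -0.18 ± 0.09 (limma, 95% interval -0.39 to 0.04, adjusted p = 0.979) at 25 h and -0.09 ± 0.09 at 7 h (adjusted p = 1.00), where it was -0.02 without the second mepenzolate array.

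Its beta chain partner Itgb2 differed by -0.09 ± 0.09 at 25 h and 0.03 ± 0.09 at 7 h, and of the 4 beta 2 integrin genes other than Itgax 1 was above 0 at 25 h and 3 at 7 h. Dendritic cell markers were below 0 in 10 of 11 genes at 25 h, median -0.17, against 58.7% of all genes tested. At 7 h these markers were below 0 in 7 of 11, median -0.05, against 56.4% of all genes. Their mean deviation at 25 h was 0.04 and -0.04 on mepenzolate arrays, against 0.08 and 0.17 on vehicle arrays, and its part in the Itgax values was not tested.

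Mertk, a receptor tyrosine kinase that engages dying cells through the bridging proteins GAS6 and protein S, had levels of 8.92 and 9.06 in mepenzolate lungs at 25 h, against 9.18 and 9.14 in vehicle lungs. At 7 h it had 9.17 and 9.18 in mepenzolate lungs, against 9.35 and 9.22 in vehicle lungs. Its mepenzolate arrays were below its vehicle arrays at 25 h, as were those of 22.4% of all genes tested, and at 7 h, as were those of 15.5%. The share of genes for which this held at both times was not counted. The difference was -0.17 ± 0.08 (limma, 95% interval -0.36 to 0.03, adjusted p = 0.979) at 25 h and -0.11 ± 0.08 (adjusted p = 1.00) at 7 h, where it was -0.12 without the second mepenzolate array.

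Of the 11 genes for the uptake of dying cells, 3 were above 0 at 25 h and 5 at 7 h, and none passed. Gas6, the ligand of MERTK and AXL, had 10.85 and 10.85 in mepenzolate lungs at 25 h, against 10.66 and 10.69 in vehicle lungs, a difference of 0.18 ± 0.07 in the direction opposite to Mertk (limma adjusted p = 0.979). Pros1, which encodes protein S, differed by 0.07, Axl by -0.14 and Mfge8, a bridge to integrins, by -0.22 ± 0.08 at 25 h. None of these 4 values passed the test.

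Pparg, the lipid-sensing nuclear receptor that alveolar macrophages need to mature, had levels of 8.58 and 8.46 in mepenzolate lungs at 25 h, against 8.52 and 8.38 in vehicle lungs. At 7 h the levels were 8.38 and 8.30 in mepenzolate lungs, against 8.45 and 8.43 in vehicle lungs. The groups overlapped at 25 h, and both mepenzolate arrays lay below the vehicle arrays at 7 h. The difference was 0.07 ± 0.09 at 25 h and -0.10 ± 0.09 at 7 h (limma adjusted p = 0.979 and 1.00), and without the second mepenzolate array it was -0.06 at 7 h. Of 12 partners and targets of PPARG tested, of 13 listed, 10 were below 0 at 25 h and 10 at 7 h. Over all genes tested, 58.7% were below 0 at 25 h and 56.4% at 7 h. The list medians were -0.07 and -0.10. At both times 9 of the 12 were below 0, as were 33.8% of all genes tested.

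Angptl4, a PPAR target that inhibits lipoprotein lipase, had 7.20 and 7.28 in mepenzolate lungs at 25 h, against 7.71 and 7.57 in vehicle lungs. At 7 h it had 7.66 and 7.66 in mepenzolate lungs, against 8.36 and 8.16 in vehicle lungs. The mepenzolate arrays were lower without overlap at both times, by -0.40 ± 0.10 at 25 h and -0.60 ± 0.10 at 7 h. The limma adjusted p values were 0.979 and 0.966. Over all genes tested, 22.4% were lower without overlap at 25 h and 15.5% at 7 h. Pdk4, which restrains the use of glucose in mitochondria, differed by -0.70 ± 0.21 at 7 h (limma adjusted p = 1.00). Without the second mepenzolate array the 7 h values were -0.60 for Angptl4 and -0.69 for Pdk4.

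Chil3, the chitinase-like lectin Ym1, had levels of 10.13 and 10.56 in mepenzolate lungs at 25 h, against 10.35 and 10.25 in vehicle lungs. The 7 h levels were 9.90 and 9.94 in mepenzolate lungs, against 9.94 and 10.11 in vehicle lungs. The mepenzolate arrays at 25 h enclosed the vehicle arrays, and the 2 treatments overlapped at 7 h. The differences between treatments were 0.05 ± 0.14 at 25 h and -0.10 ± 0.14 at 7 h (limma adjusted p = 0.988 and 1.00), with -0.12 at 7 h without the second mepenzolate array. Its close paralog Chil4 lay below the level filter at 5.36 to 5.80 on all 8 arrays, and signal shared between such similar genes cannot be separated here.

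Mmp12, macrophage elastase, had levels of 7.12 and 7.08 in mepenzolate lungs at 25 h, against 7.08 and 7.21 in vehicle lungs. At 7 h it had 7.32 and 7.03 in mepenzolate lungs, against 7.04 and 7.06 in vehicle lungs. The groups overlapped at both times, and the first mepenzolate 7 h array was highest of the 8. The differences were -0.05 ± 0.11 at 25 h and 0.13 ± 0.11 at 7 h (limma adjusted p = 0.984 and 1.00), the second being 0.27 without the second mepenzolate array. Timp1, an inhibitor of metalloproteinases, differed by -0.11 at 25 h and by 0.41 ± 0.17 at 7 h (adjusted p = 1.00; 0.54 without that array).

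Krt79, a keratin that marks alveolar macrophages in mouse lung profiles, had levels of 8.20 and 8.06 in mepenzolate lungs at 25 h, against 8.45 and 8.36 in vehicle lungs. The 7 h levels were 8.29 and 8.08 in mepenzolate lungs, against 8.29 and 8.56 in vehicle lungs. The groups were apart at 25 h, and at 7 h the first arrays of both groups lay close to each other. The difference was -0.27 ± 0.12 at 25 h (limma, 95% interval -0.55 to 0.003, adjusted p = 0.979), which was the largest among the members. At 7 h it was -0.24 ± 0.12 (adjusted p = 1.00), and -0.13 without the second mepenzolate array.

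Car4, whose product is also abundant in a class of alveolar capillary endothelium, had levels of 11.67 and 11.71 in mepenzolate lungs at 25 h, against 11.84 and 11.79 in vehicle lungs. At 7 h the levels were 11.75 and 11.79 in mepenzolate lungs, against 11.92 and 11.79 in vehicle lungs. The 25 h groups were apart and the 7 h groups overlapped. The differences were -0.13 ± 0.08 at 25 h and -0.08 ± 0.08 at 7 h (limma adjusted p = 0.979 and 1.00), with -0.11 at 7 h without the second mepenzolate array. The alveolar capillary list (9 of 10 genes tested) was below 0 in 8 of 9 genes at 25 h, against 58.7% of all genes tested. Its mean deviation at 25 h was -0.10 and -0.09 on mepenzolate arrays, against 0.01 and -0.03 on vehicle arrays. At 7 h 4 of the 9 were below 0, list median 0.0084, against 56.4% of all genes. The 7 h mean deviation was 0.06 and 0.02 on mepenzolate arrays, against 0.09 and 0.05 on vehicle arrays. The part of capillary cells in the Car4 values was not tested.

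**Figure D2:**
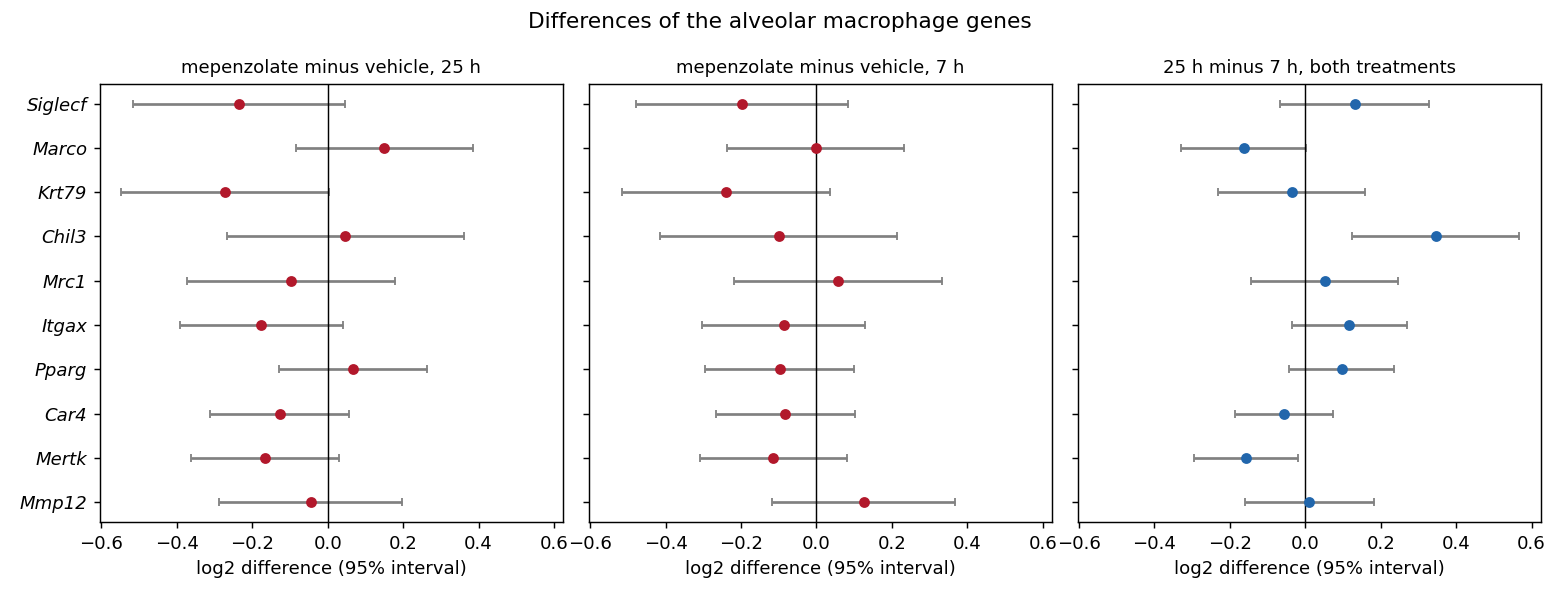
Log2 difference of each member with its 95% interval from limma, for mepenzolate minus vehicle at 25 h (left), mepenzolate minus vehicle at 7 h (middle) and 25 h minus 7 h over both treatments (right). All 20 intervals for mepenzolate contain 0; on the right the intervals of Chil3 (0.12 to 0.57) and Mertk (-0.29 to -0.02) do not, and neither passed after adjustment.

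At 25 h, 0 of 10 members passed the test in either direction, as did 0 of all 14953 genes (0%); 0 members and 4.01% of genes had an unadjusted limma p under 0.05. Of the members 7 were below 0, against 58.7% of genes, and the members' median was -0.11, against -0.02 over all genes. Arrays were apart in 6 of the 10 members and in 36.6% of genes: 5 members and 22.4% of genes were lower in mepenzolate lungs, and 1 member and 14.2% of genes were higher. The members' 95% intervals together spanned -0.55 to 0.39, so larger differences of any member lay outside its interval.

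At 7 h, 0 of 10 members and 0 of 14953 genes passed (0%), and 0 members and 2.39% of genes had an unadjusted limma p under 0.05. Of the members 8 were below 0, against 56.4% of genes, with medians of -0.09 and -0.01. Arrays were apart in Pparg and Mertk, 2 of 10, against 23.7% of genes. Both were lower in mepenzolate lungs, as were 15.5% of genes, and no member was among the 8.26% of genes that were higher. The share of members with arrays apart was thus close to that of all genes.

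Over both times, 0 of 10 members and 0 of 14953 genes passed (0%). Krt79 was lower in mepenzolate lungs by -0.26 ± 0.08 (0.837-fold), Siglecf by -0.22 ± 0.09 and Mertk by -0.14 ± 0.06, and these 3 had unadjusted limma p values of 0.0162, 0.036 and 0.0472, against 3.77% of genes under 0.05. All had an adjusted p of 0.999. Of the members 8 were below 0, against 60.0% of genes. In 5 members, Siglecf, Krt79, Itgax, Car4 and Mertk, the difference was below 0 at both times, as it was in 33.8% of genes. With 4 arrays against 4, no member had its arrays apart, as against 2.41% of genes, of which 1.81% were lower and 0.602% higher.

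The mepenzolate difference at 25 h minus that at 7 h ran from -0.17 ± 0.15 in Mmp12 to 0.17 ± 0.12 in Pparg, and 7 members were below 0, against 51.7% of genes. None of the members and none of the 14953 genes passed the limma test of this difference (0%), and 0 members had an unadjusted p under 0.05, against 2.68% of genes. Pparg was above the vehicle mean on both mepenzolate arrays at 25 h and below it on both at 7 h.

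**Figure D3:**
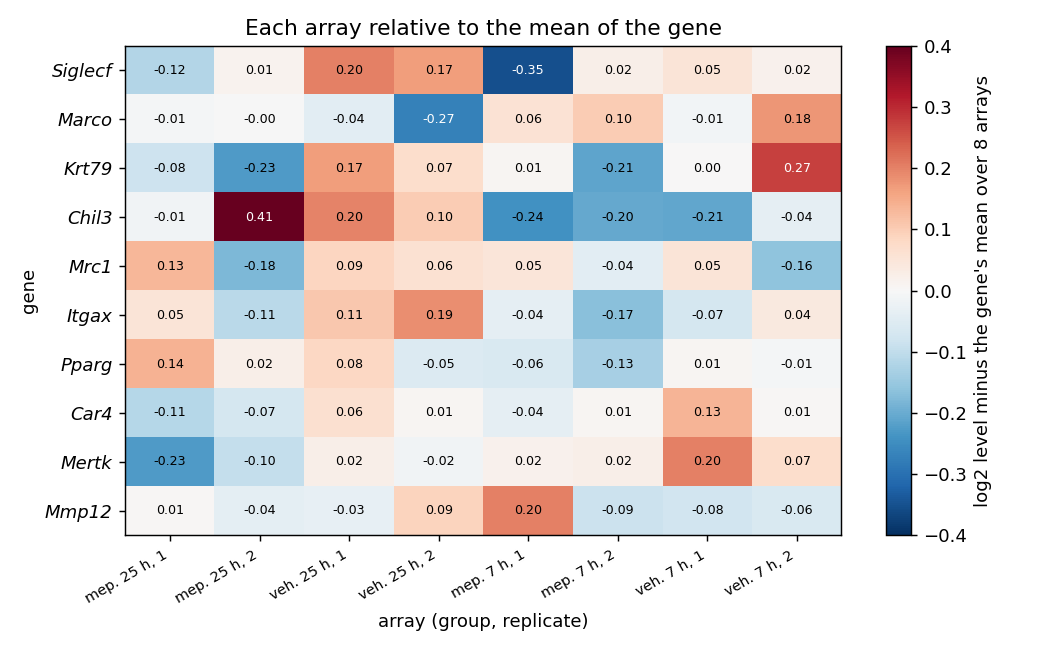
Deviation of each member on each array from that gene's mean over all 8 arrays (log2 units, colour scale and printed value), with arrays grouped as mepenzolate 25 h, vehicle 25 h, mepenzolate 7 h and vehicle 7 h. Of the 10 members, 8 were above their own mean on the first vehicle 25 h array and 7 on the second, against 4 and 3 on the mepenzolate 25 h arrays.

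The members did not move as 1 block across the arrays. The range of a member over the 8 arrays was 0.25 to 0.65, median 0.39, against a median of 0.31 over all genes tested, and the SD within groups had a median of 0.11 in members and 0.10 in all genes. The second mepenzolate 7 h array was lowest in 3 members and highest in none; both vehicle 7 h arrays were highest in 2 members and lowest in none. Chil3 had the widest range and Car4 the narrowest.

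Between the times, over both treatments, 0 of 10 members passed, while 33 of 14953 genes did (0.221%), 27 lower (0.181%) and 6 higher (0.0401%) at 25 h; with quantile normalization 29 were lower and 12 higher. Chil3 had 10.13 to 10.56 on the 4 arrays at 25 h, against 9.90 to 10.11 on the 4 at 7 h, and was the only member with arrays apart, as 6.69% of genes were (2.55% higher and 4.15% lower at 25 h). The difference was 0.35 ± 0.10 (limma, 95% interval 0.12 to 0.57, unadjusted p = 0.00693, adjusted p = 0.261). Leaving out 1 array at a time gave 0.24 to 0.45. In order, the Chil3 group means were 10.34 for mepenzolate 25 h, 10.30 for vehicle 25 h, 10.02 for vehicle 7 h and 9.92 for mepenzolate 7 h, and neighbours at the same time overlapped.

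Neutrophils and monocytes can also express Chil3. Over all genes tested, 50.7% were above 0 at 25 h against 7 h. Neutrophil markers were above 0 in 7 of 9 tested genes at 25 h against 7 h, median 0.08, with S100a8 at 0.50 ± 0.12 (limma adjusted p = 0.178). With 1 array left out, 5 to 8 of the 9 were above 0. Their mean deviations were -0.14 to 0.31 on the 25 h arrays, against -0.34 to 0.09 on the 7 h arrays. Monocyte markers were above 0 in 7 of 11, median 0.20, with mean deviations of 0.0045 to 0.22 at 25 h and -0.12 to 0.06 at 7 h. The part of either list in the Chil3 values was not tested.

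Mertk was lower at 25 h by -0.16 ± 0.06 (limma, unadjusted p = 0.0307, adjusted p = 0.470), and its arrays at the 2 times overlapped. Chil3 and Mertk were the 2 members of 10 with an unadjusted p under 0.05, against 8.97% of genes. Marco was lower by -0.16 ± 0.07 (limma adjusted p = 0.568), and the other 7 members lay between -0.06 in Car4 and 0.13 in Siglecf, so the surface receptors lay on both sides of 0. In all 4 members were below 0, against 49.3% of genes, and the median was 0.03, against 0.0014 over all genes.

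The macrophage genes outside the 10 give the setting of these values. Over all genes tested, 41.3% were above 0 for mepenzolate at 25 h, 43.6% at 7 h and 50.7% between the times. Of 14 listed further alveolar macrophage genes 12 were tested, and 7 were above 0 for mepenzolate at 25 h (median 0.03) and 3 at 7 h (median -0.11), with none passing; without the second mepenzolate array 4 were above 0 at 7 h, median -0.02. Fabp4, a lipid carrier, differed by 0.48 ± 0.31 at 25 h, at 8.73 and 7.91 in mepenzolate lungs against 7.80 and 7.88 in vehicle lungs, and Slc7a2, a transporter of cationic amino acids, by -0.22 ± 0.08 at 7 h (limma adjusted p = 0.979 and 1.00). The Fabp4 value rests on the first mepenzolate array, and leaving out 1 array gave 0.07 to 0.89. Which cells of the whole lung gave the Fabp4 signal was not tested. Between the times 8 of 12 were above 0, median 0.02, and 4 to 10 of 12 with 1 array left out. Fabp5, another lipid carrier, was 0.39 ± 0.10 higher at 25 h with arrays apart (limma adjusted p = 0.224), as 2.55% of genes were in this direction.

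General macrophage genes stood on the same side between the times: 14 of 14 were above 0 at 25 h, against 50.7% of all genes. Their median was 0.12, and 12 to 14 were above 0 with 1 array left out. None passed at a limma adjusted p under 0.05. Cd53, a tetraspanin of leukocytes, differed by 0.34 ± 0.06 (limma adjusted p = 0.0741), Mpeg1, a pore-forming protein of phagocytes, by 0.27 (0.128), Cd68, a lysosomal glycoprotein, by 0.19 ± 0.07 (0.472), Adgre1, which encodes F4/80, by 0.13 and Csf1r, the receptor for CSF1, by 0.11. The list's mean deviation was 0.01 to 0.10 on the 25 h arrays, against -0.12 to -0.0099 on the 7 h arrays. For mepenzolate 5 of 14 were above 0 at 25 h and 6 at 7 h, with medians of -0.04 and -0.0049; without the second mepenzolate array 10 were above 0 at 7 h. Interstitial macrophage genes were above 0 in 4 of 13 for mepenzolate at 25 h, in 3 at 7 h (6 without that array) and in 9 between the times, with none passing.

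**Figure D4:**
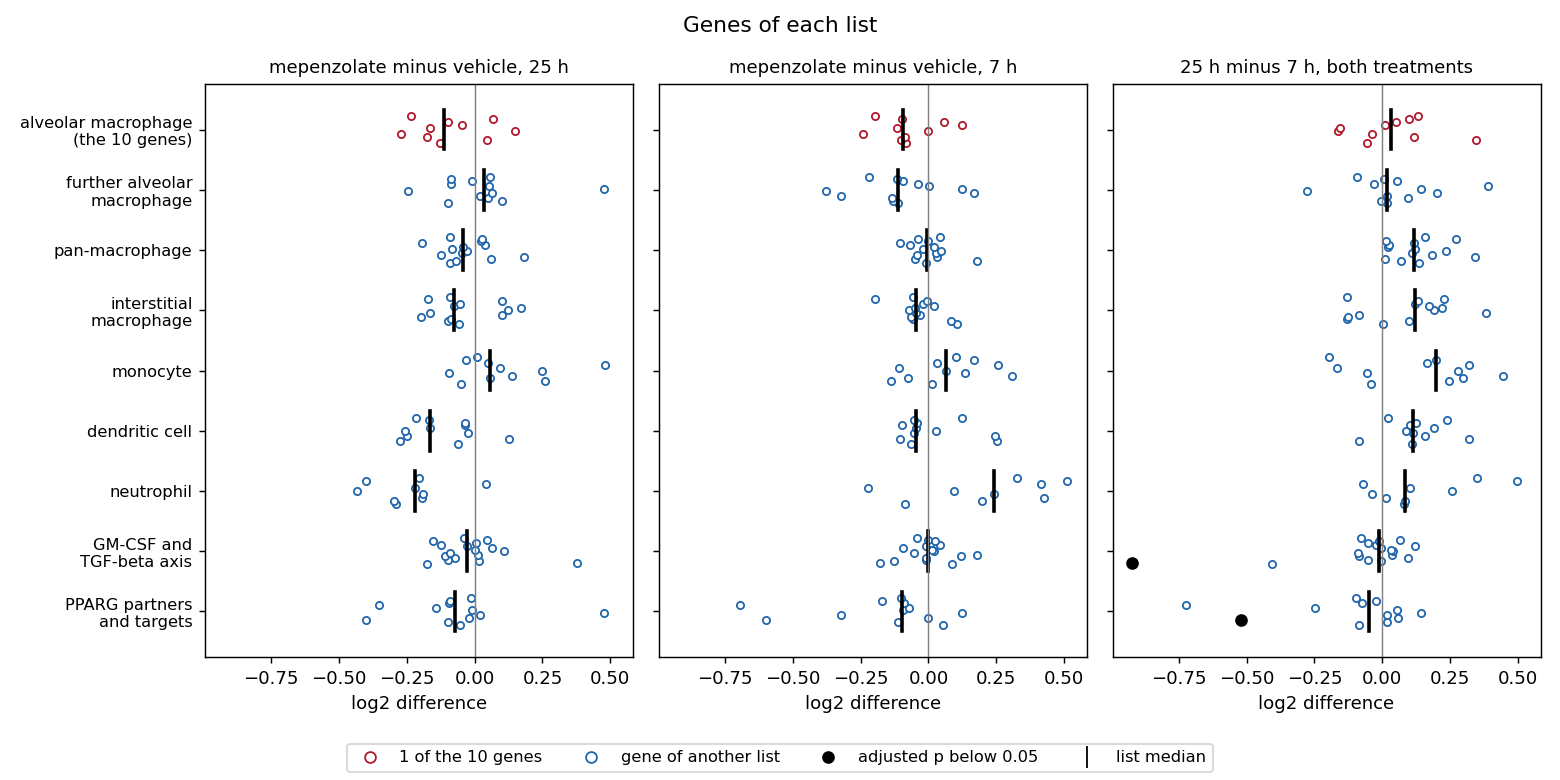
Log2 difference of each tested gene of 9 gene lists (1 circle per gene, the 10 members in red) with the list median as a bar, for mepenzolate minus vehicle at 25 h (left) and 7 h (middle) and for 25 h minus 7 h over both treatments (right). The 14 general macrophage genes all lie right of 0 on the right, with a median of 0.12, and the 2 filled circles there are the genes that passed, at -0.92 and -0.52.

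Of the genes that direct alveolar macrophage identity, 17 were tested, and 8 were above 0 for mepenzolate at 25 h and 9 at 7 h (11 without the second mepenzolate array), none passing. Csf2, which encodes GM-CSF, differed by -0.10 at 25 h and -0.0097 at 7 h, where it was 0.10 without the second mepenzolate array. Its receptor chain Csf2ra differed by -0.07 and -0.0078 at these times, and Spi1, which encodes PU.1, by -0.03 and -0.0096. Of the beta chains of the receptor, Csf2rb differed by -0.11 at 25 h and 0.12 at 7 h, and Csf2rb2 by 0.01 at 25 h and 0.18 at 7 h (0.33 without that array). Tgfb1 differed by -0.15 at 25 h and 0.02 at 7 h. All of these had limma adjusted p values above 0.05. Between the times Spi1 was 0.12 ± 0.06 higher at 25 h with arrays apart (limma adjusted p = 0.627), as 2.55% of genes were in this direction. The arrays were barely apart: the lowest Spi1 value at 25 h was 9.036 and the highest at 7 h was 9.034. Tgfb1 differed by -0.01 and Csf2 by -0.05 between the times.

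Among these, Bhlhe41, a repressor that alveolar macrophages need for self-renewal and that also belongs to the circadian clock, fell at 25 h relative to 7 h. It had 7.03 and 6.70 in mepenzolate lungs and 6.42 and 6.55 in vehicle lungs at 25 h, against 7.49 and 7.53 in mepenzolate lungs and 7.72 and 7.66 in vehicle lungs at 7 h. The arrays of the 2 times did not overlap, and 4.15% of all genes tested were lower at 25 h in this way. The difference was -0.92 ± 0.08 (limma adjusted p = 0.00599), and it passed without any 1 array, at -1.01 to -0.84. Its relative Bhlhe40 differed by -0.41 ± 0.10 (adjusted p = 0.187).

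Of the PPARG partners and targets, Angptl4 also fell at 25 h relative to 7 h, by -0.52 ± 0.07 (limma adjusted p = 0.0305), although the times overlapped across treatments, at 7.20 to 7.71 at 25 h and 7.66 to 8.36 at 7 h. The call ended when any 1 array was left out, at adjusted p values of 0.0585 to 0.19, while the difference stayed at -0.57 to -0.47. Pdk4 differed by -0.72 (adjusted p = 0.128), and 5 of the 12 genes tested were above 0. Pparg itself differed by 0.10 ± 0.06 between the times (limma adjusted p = 0.739).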

How the data were processed

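Whole lung RNA of mice was measured on Affymetrix gene arrays. The authors deposited log2 expression values of 34760 probes, summarised with RMA per the submitters' processing notes; no version of RMA is given in the sources used here. RMA is meant to equalise distributions between arrays, yet the array medians of the deposited values still ran from 6.70 to 6.77. It also compresses differences of dim genes. Of the probes, 21640 carried 1 symbol, 1321 carried several and 11799 carried none in the annotation used. All 10 members were found by Entrez identifier in RefSeq's table for GRCm38.p6, the build of the sequences.

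Groups came from the sample titles. limma 3.58.1 in R 4.3.3 fitted 4 group means to all 8 arrays (residual df 4, prior df 4.09), and p-values were adjusted over the 14953 genes tested by Benjamini-Hochberg. An exact permutation test of 2 arrays against 2 cannot give a p under 0.333. Replicate numbers were not taken to pair the arrays, since the labels give no shared animal or batch. Of 6 correlations of same-numbered deviations, the 3 among mepenzolate 25 h, mepenzolate 7 h and vehicle 7 h were 0.194 to 0.396. The 3 with vehicle 25 h were -0.0209 to 0.0269. Calls with a replicate block in the fit are given below.

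The members and lists were chosen with earlier results of these data known. In each comparison the 10 members were named, with list genes that passed, the 2 per list with the largest t, and a set chosen by name; not all are printed. Alternatives covered the filter, normalization, probe choice, moderation, samples in the fit, replicate block and leaving out 1 array. The number of arrays limits the precision.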

Additional observations from a re-analysis of the deposited data

How the results depend on the processing

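No member passed in any setting; under the stricter filter (50th percentile) Marco and Mmp12 were not tested. The smallest adjusted p of any member with 1 array left out was 0.769 for mepenzolate at 25 h, 0.633 at 7 h, 0.592 over both times and 0.0846 between the times. Outside the fits with 1 array left out, 2 of 68 member values between the times changed sign, both in Mmp12 (-0.0047 with quantile normalization and -0.0099 with median centring), and none for mepenzolate. With 1 array left out, signs changed at 25 h in Chil3 (-0.164 to 0.259), Mrc1 (-0.253 to 0.0579), Pparg (-0.0021 to 0.136) and Mmp12 (-0.107 to 0.0171). At 7 h they changed in Marco (-0.0947 to 0.0912), Mrc1 (-0.0497 to 0.165) and Mmp12 (-0.018 to 0.269). Over both times they changed in Chil3 (-0.132 to 0.0792), Mrc1 (-0.0978 to 0.0577), Pparg (-0.0501 to 0.019) and Mmp12 (-0.0316 to 0.112), and between the times in Krt79 (-0.104 to 0.0327), Mrc1 (-0.0263 to 0.129) and Mmp12 (-0.0606 to 0.0829).

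Over all genes, the replicate block called 1 gene for mepenzolate at 25 h (Snord73b, named after its value was seen), against 0 without the block, and 73 between the times (46 lower and 27 higher), against 33 (27 lower and 6 higher). Between the times the stricter filter called 72 (46 lower, 26 higher) and the intensity trend with robust spread 123 (79 lower, 44 higher); the cause was not tested. Leaving out 1 array gave 0 to 1 calls for mepenzolate at 25 h, 0 to 2 at 7 h, 0 to 2 over both times, 0 to 2 for the difference of effects and 11 to 34 between the times. The block changed no call of a member. With 2 arrays a group, no difference of a member passed after adjustment over all genes tested. Whether such differences are absent was not shown.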

Other observations

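At 25 h 8 of 9 tested neutrophil genes were below 0, median -0.22, for mepenzolate, against 58.7% of all genes tested. At 7 h 7 of 9 were above 0, median 0.24, against 43.6% of all genes. The 7 h side rested on the second vehicle array, with a list mean of -0.34 against -0.01 on the first; without it the median was 0.07, with 6 of 9 above 0. Without the second mepenzolate 7 h array it was 0.20. S100a8, a subunit of the neutrophil protein calprotectin, differed by -0.40 ± 0.17 at 25 h and 0.51 ± 0.17 at 7 h (0.26 to 0.76 with 1 array left out), a difference of effects of -0.91 ± 0.24 that did not pass the test over all genes (limma adjusted p = 1.00). Monocyte genes were above 0 in 8 of 11 at 25 h and 8 of 11 at 7 h, 5 of them at both. Over all genes tested, 41.3% were above 0 at 25 h and 43.6% at 7 h. Cd300e was 0.45 ± 0.09 higher at 25 h than at 7 h (limma adjusted p = 0.119). Dendritic cell genes were above 0 at 25 h against 7 h in 10 of 11, median 0.11, as were 50.7% of all genes. Ccr7, which guides dendritic cells to lymph nodes, was at 0.32 ± 0.06 (limma adjusted p = 0.125).

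Genes of alternative activation, a programme that shares Chil3 and Mrc1, were above 0 for mepenzolate in 2 of 8 tested at 25 h. At 7 h 3 of 8 were above 0 (5 without the second mepenzolate array). Over all genes tested, 41.3% were above 0 at 25 h and 43.6% at 7 h. Il4ra, the receptor chain for interleukin 4, differed by -0.22 ± 0.08 at 25 h (limma adjusted p = 0.979). Of 7 carbonic anhydrases other than Car4, 3 were above 0 at each time. Of 2 tested chitinase-family genes, Chil1 differed by -0.04 ± 0.56 at 25 h and -1.06 ± 0.56 at 7 h, where it was -0.05 without the second mepenzolate array. Chia1, an acidic chitinase, differed by 0.0047 ± 0.20 at 25 h. At 7 h it differed by 0.47 ± 0.20 (limma adjusted p = 1.00), and by 0.52 without that array. Its arrays at 7 h were apart, as were those of 8.26% of genes in this direction. Alveolar type 2 genes were above 0 in 4 of 8 at each time, with medians of -0.0052 and -0.0026. Club cell genes were above 0 in 4 of 8 at 25 h and in 1 of 8 at 7 h. Liver genes (3 tested of 7 listed) were above 0 in 1 of 3 at 25 h and 3 of 3 at 7 h. Among these 3, Ahsg passed the level filter only through the second mepenzolate 7 h array. Without the second mepenzolate array the 7 h medians were -0.36, against -0.61 with it, for club cell genes and 0.08, against 0.63, for liver genes. No gene named here passed the test for mepenzolate.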
